A study of Danio rerio with 4 samples.

Results

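Chromatin-modifying enzymes were examined in whole zebrafish embryos at sphere stage, with and without the T-box transcription factor Eomesodermin a (Eomesa). They were taken by gene name, as rows whose name begins with *kdm* and a digit, *kmt*, *mll*, *setd*, *hdac*, *kat* and a digit, *ep300*, *crebbp*, *ezh*, *suz12*, *dnmt*, *tet*, *sirt*, *ehmt*, *suv39*, *prmt* or *dot1l*, or equals *eed*. This rule found 109 of the 32468 genes in the deposited table. The wild-type embryos were of the AB strain. The mutant embryos carried the *eomesa* fh105 allele, on a background also labelled AB. As MZ*eomesa* embryos they came from homozygous mutant parents and lacked maternal as well as zygotic Eomesa. According to the study's methods, embryos of homozygous mutant mothers and heterozygous or wild-type fathers took the place of MZ*eomesa* embryos in some of its experiments, which are not listed. Each group had 2 RNA samples, labelled as replicates with nothing said of separate clutches, and the deposited table combines them into 1 FPKM value per gene and group (a read count scaled to exon length and to the number of mapped reads). No value exists here for a single sample, so no value below has a standard deviation, no difference has a test, and whether a fold exceeds the spread between replicates is unknown. Because embryos were sequenced whole, fewer cells of a type and less RNA per cell cannot be told apart.

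Chromatin is regulated by enzymes that add and remove chemical groups on histones and DNA. Acetyltransferases open chromatin and deacetylases reverse this, whereas methyl groups on histone lysines mark active genes (H3K4, H3K36), heterochromatin (H3K9) or Polycomb-repressed genes (H3K27), depending on the residue. DNA methyltransferases place and copy cytosine methylation, and Tet dioxygenases oxidise it. In zebrafish the first divisions run on RNA loaded by the mother, and the zygotic genome is switched on during blastula stages, so at sphere stage maternal and zygotic transcripts of such genes are measured together.

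By name, 102 of the 109 genes encode an enzyme or a core subunit of an enzyme complex. The remaining 7 are *mllt* genes, named after fusion partners of the human MLL gene, which are not enzymes themselves. Some of the 102 are best known for other substrates, such as *setd3*, whose mammalian counterpart methylates actin, and *sirt3*, *SIRT4* and *sirt5*, whose mammalian counterparts are mitochondrial. The rule also misses enzymes with other names, for instance *carm1*, which is described with the partner genes. Listed spans of 21 of the 109 genes overlap another gene, which makes their values uncertain. Not all of these are marked again below, for instance *kdm2aa*, *ep300a*, *crebbpa*, *HDAC11 (1 of 2)*, *prmt10* and *dnmt8*. The authors' table marks 2 genes, *hdac4* and *kdm5c*, as failed in its comparison.

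The *eomesa* gene itself was listed at 62.6 FPKM in wild-type embryos and 1.52 FPKM in the mutants. Markers of blastula cells were present, with *pou5f1* at 493 FPKM in wild-type embryos and 588 in the mutants, *sox19b* at 96.1 and 58.0, past 1.5-fold lower, and *vox* at 60.5 and 52.2. Markers of differentiated tissues summed to 0.975 FPKM in wild-type embryos and 4.47 in the mutants over 8 genes. Most of the latter was the neuronal gene *elavl3*, while *ins* was listed at 0 in each group and *myl7* at 0 in MZ*eomesa* embryos. Markers of other cells and of maternal RNA differed between the groups. Summed over 8 enveloping layer genes they stood at 286 and 529 FPKM. Of the 6 averaging 1 FPKM or more, 4 were 1.5-fold or more higher in MZ*eomesa* embryos, against 12.2% of all genes. Of these 4, *cyt1*, at 0.184 and 2.28 FPKM, passed the minimum mean only through its MZ*eomesa* value, and its span overlaps another gene. Over 3 yolk syncytial layer genes, led by *mxtx1* and *mxtx2*, the markers stood at 92.6 and 7.73 FPKM. Over 4 germ plasm and oocyte genes they stood at 176 and 110 FPKM. Among them only *buc*, at 96.1 and 42.0 FPKM, was past 1.5-fold lower. *nanos3* at 25.4 and 18.3 FPKM and *zp3b* at 37.5 and 29.9 FPKM were lower within 1.5-fold. *dazl* was the higher in the mutants, at 17.1 and 20.1 FPKM. The part of these cells and RNAs in the values of the enzymes was not tested.

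Transcripts of the enzymes were abundant in the early embryo. The median level of all 109 members was 17.9 FPKM in wild-type embryos, against 0.559 FPKM over all genes of the table. Many genes of the table are barely detected. Among genes averaging 1 FPKM or more over both groups, the wild-type median was 21.3 FPKM for members and 10.5 FPKM for all genes. At least 10 FPKM was reached by 66 members (60.6%), against 23.6% of all genes. At least 100 FPKM was reached by 8 members (7.34%), against 3.06% of all genes. The 4 most abundant, *prmt1*, *setd8b*, *hdac1* and *setd8a*, held 33.4% of the summed FPKM of all 109. *prmt1*, the main arginine methyltransferase, had 435 FPKM in wild-type embryos and 453 in the mutants. *setd8b*, a methyltransferase for histone H4 lysine 20, had 381 and 431 FPKM, and another gene lies in the same span. *hdac1*, the deacetylase of the Sin3 and NuRD repressor complexes, had 351 and 409 FPKM. A further 13 members had a mean of less than 1 FPKM and are described with their classes, without a ratio.

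**Figure D1:**
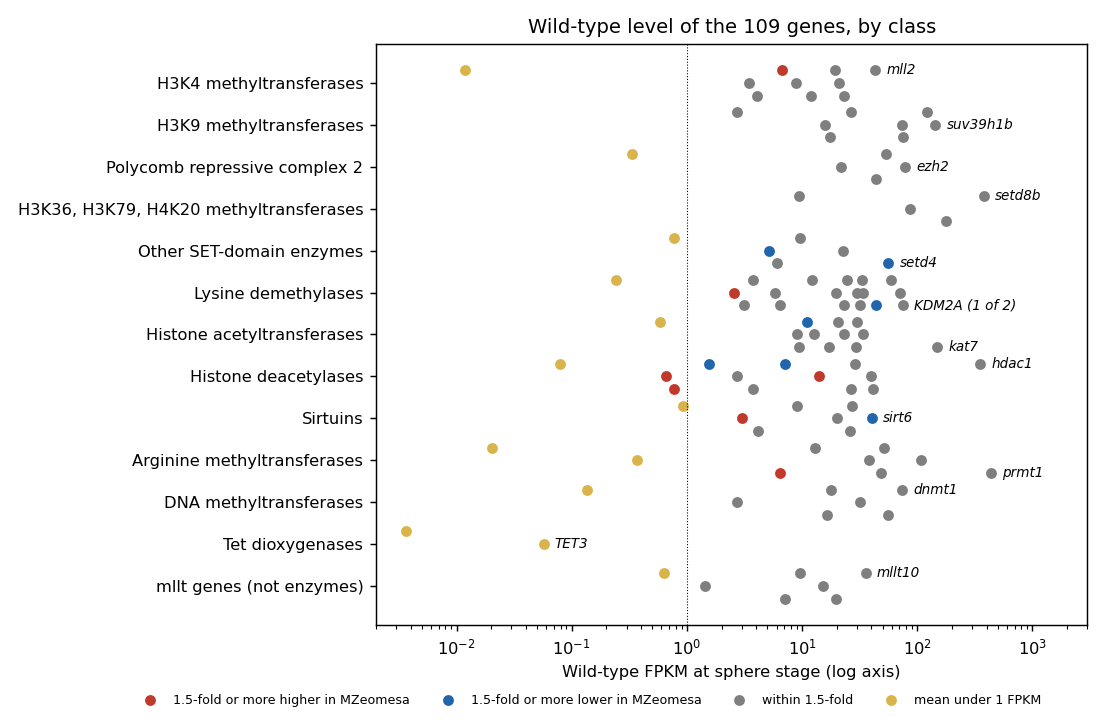
Wild-type FPKM on a log axis for all 109 genes, 1 point per gene, by class. The name beside each row is that of the class's most abundant gene, colour gives the difference between the groups, and the dotted line marks 1 FPKM. *prmt1* lies furthest to the right at 435 FPKM and both Tet genes found by name lie under 0.1 FPKM.

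Without Eomesa the set as a whole stayed close to its wild-type level. Its summed FPKM was 4028 in wild-type embryos and 4099 in the mutants, a ratio of 1.02. The 96 members averaging 1 FPKM or more had a median log2 ratio of -0.036, against -0.011 over all 14921 such genes of the table. Among them 46 had the higher value in MZ*eomesa* embryos and 50 the lower. The middle part of their log2 ratios, from the lower to the upper quartile, ran from -0.28 to 0.17, against -0.29 to 0.27 over all genes. In all, 52 of the 96 members (54.2%) lay within 1.2-fold, compared with 47.4% of all genes.

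A difference of 1.5-fold or more was seen for 14 of the 96 members (14.6%), 7 higher and 7 lower in MZ*eomesa* embryos. Across all genes 22.6% passed this limit, 12.2% higher and 10.4% lower. These shares are also the background for the class counts below. The share depends on the level of a gene. From 1 to 10 FPKM 9 of 30 members passed, 30% beside a background of 32.5%. Between 10 and 30 FPKM 2 of 31 passed, 6.45% against 16.7%, and from 30 FPKM 3 of 35 passed, 8.57% against 9.54%. The share of members was thus close to the background in the lowest and highest ranges and below it in the middle one, and no test was made. None of the 8 members with at least 100 FPKM passed, and their log2 ratios ran from -0.15 to 0.22.

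**Figure D2:**
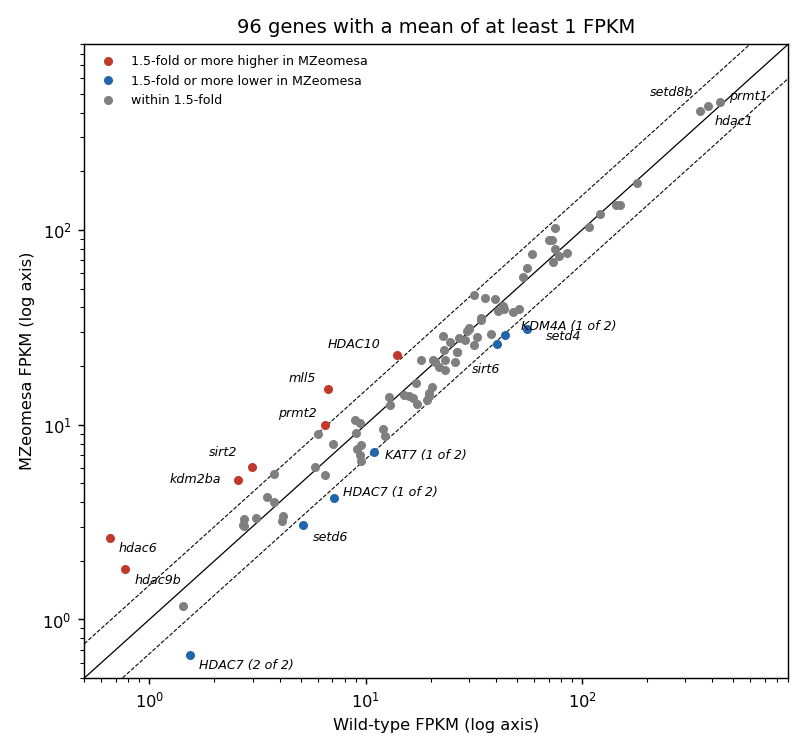
FPKM in wild-type against MZ*eomesa* embryos on log axes for the 96 members averaging 1 FPKM or more, 1 point per gene. The solid line marks equal values and the dashed lines 1.5-fold. The 7 members above the upper line are all under 14 FPKM in wild-type embryos, whereas those below the lower line reach 55.9 FPKM.

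Members that were higher had at most 13.9 FPKM in wild-type embryos, and those that were lower at most 55.9 FPKM. The wild-type level is also the denominator of the ratio, so these levels are given as a description. At 2-fold or more 5 members were higher and 1 was lower, against 5.4% and 3.8% of all genes. *hdac6* and *hdac9b* passed the minimum mean through their MZ*eomesa* value, and *HDAC7 (2 of 2)* through its wild-type value. Among the 93 members with at least 1 FPKM in each group, 5 were higher and 6 lower. With that filter 19.4% of all genes passed in either direction. The largest ratio among the 93 members was that of *mll5* at 2.25-fold. Just past the limit lay *KAT7 (1 of 2)* with a log2 ratio of -0.60 and *prmt2* with 0.63. Just short of it lay *setd5* with -0.55, *setd7* with 0.57 and *kdm6a* with 0.57.

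Among the histone deacetylases 12 averaged 1 FPKM or more, of which 3 were higher and 2 lower, but 3 of these 5 passed the minimum only through the group in which they were high. The 9 with at least 1 FPKM in each group spanned -0.76 to 0.71 on the log2 scale (median 0.08). Wider ranges were those of the H3K4 methyltransferases (-0.53 to 1.17), sirtuins (-0.64 to 1.02) and lysine demethylases (-0.61 to 1.01). Their upper ends are single genes, *mll5*, *sirt2* and *kdm2ba*, at 6.73, 2.99 and 2.58 FPKM in wild-type embryos. Without *mll5* the highest H3K4 ratio was 0.29, of *setd1ba*. Classes differ in the number and level of their genes, so these ranges are not directly comparable. *hdac6* (chromosome 8, 7930066 to 7981022), a mainly cytoplasmic enzyme that deacetylates tubulin, had 0.657 FPKM in wild-type embryos and 2.63 FPKM in the mutants, 4.0-fold higher from a level under 1 FPKM. *hdac9b* (chromosome 16, 21928131 to 22060093), of the class IIa enzymes that bind Mef2 factors in muscle, had 0.775 and 1.81 FPKM, a log2 ratio of 1.22. *HDAC10* (chromosome 25, 5349616 to 5368269), known in mammals as a polyamine deacetylase, had 13.9 and 22.7 FPKM, a log2 ratio of 0.71. These genes belong to class II, the deacetylases that are not the core of the general nuclear repressor complexes.

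The lower deacetylases were class II genes as well. Of the deacetylases past the limit, only *HDAC10* and *HDAC7 (1 of 2)* had at least 1 FPKM in each group. *HDAC7 (1 of 2)* (chromosome 23, 85115 to 91275) had 7.129 FPKM in wild-type embryos and 4.198 in the mutants, a log2 ratio of -0.76. *HDAC7 (2 of 2)* (chromosome 6, 38836471 to 38856383), paired with *hdac7b* in the reference table, had 1.54 and 0.659 FPKM, a log2 ratio of -1.23. The copies of *HDAC7* lay on the same side and *hdac9b*, of the same class IIa, on the other. *HDAC7 (2 of 2)* and *hdac9b* were, however, each under 1 FPKM in 1 of the groups. *HDAC5* and *hdac4*, also class IIa, had 2.72 and 3.77 FPKM in wild-type, with log2 ratios of 0.17 and 0.08, and *HDAC4* on chromosome 19 was under 0.1 FPKM in each group. Class I deacetylases, which act in nuclear corepressors, were high and near equal. Every class II gene had 13.9 FPKM or less in wild-type embryos, so class and level cannot be told apart here. *hdac1* had a log2 ratio of 0.22, *hdac3*, the catalytic subunit of NCoR complexes, -0.09 from 40.9 FPKM, and *hdac8* 0.15 from 39.7 FPKM. *hdac1* made up 67.8% of the summed deacetylase FPKM in wild-type embryos and 70.3% in the mutants. *HDAC11 (1 of 2)* and *HDAC11 (2 of 2)* had 26.3 and 28.9 FPKM in wild-type, with log2 ratios of -0.15 and -0.09.

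**Figure D3:**
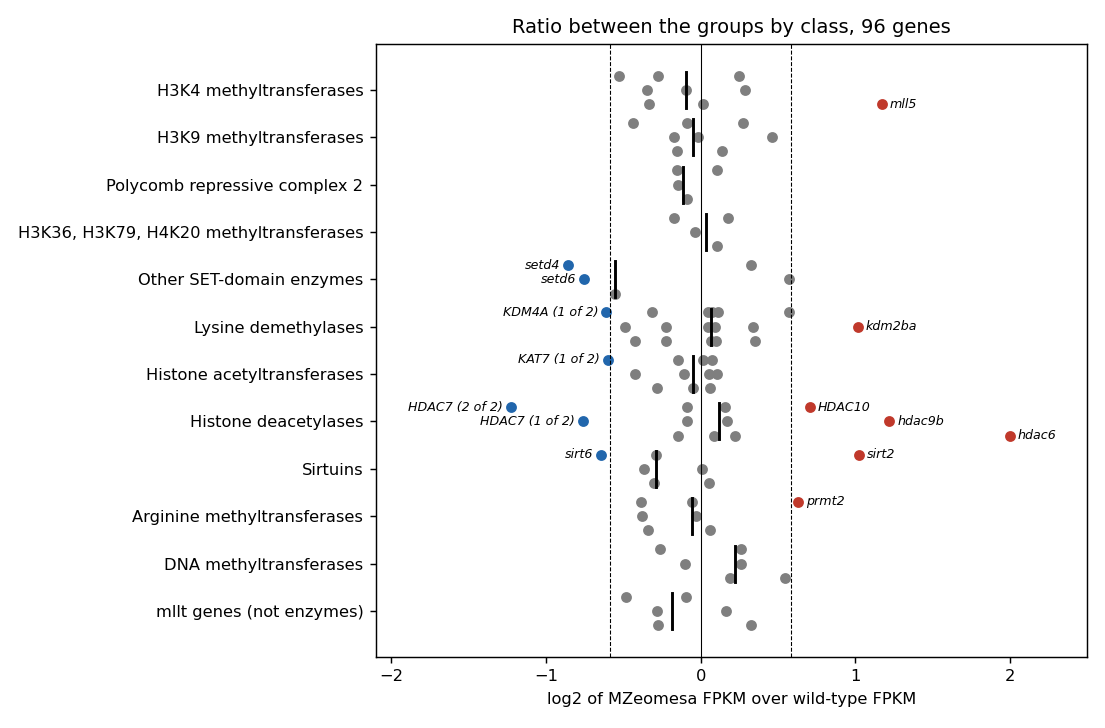
The log2 of MZ*eomesa* over wild-type FPKM by class, for the 96 members averaging 1 FPKM or more; the Tet genes have none. Points are genes, thick bars class medians and dashed lines the 1.5-fold limit. *hdac6*, *hdac9b* and *HDAC7 (2 of 2)*, the outermost deacetylases, were each under 1 FPKM in 1 of the groups, and the H3K9, Polycomb, H3K36, H3K79 and H4K20, DNA methyltransferase and *mllt* rows hold no gene past the limit.

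Sirtuins, the deacetylases that consume NAD+, went to both sides. *sirt2* (chromosome 15, 6672372 to 6693579), a largely cytoplasmic tubulin deacetylase, had 2.99 FPKM in wild-type embryos and 6.06 in the mutants, a log2 ratio of 1.02. *sirt6* (chromosome 2, 53554286 to 53645654), a chromatin-bound deacetylase of histone H3, was the most abundant sirtuin in wild-type with 40.5 FPKM and had 25.9 FPKM in the mutants, a log2 ratio of -0.64. Its listed span holds another 2 genes, at 0.150 FPKM or less in wild-type embryos. *sirt1*, which deacetylates p53 and histones, had a log2 ratio of -0.30 from 25.8 FPKM, and *SIRT7*, a nucleolar enzyme whose span overlaps another gene, -0.37 from 20.1 FPKM. The mitochondrial *sirt3* and *sirt5* had log2 ratios of 0.00 and 0.05, and *SIRT5 (2 of 2)* -0.29 from 4.13 FPKM. *SIRT4* lay under 1 FPKM in each group.

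None of the 11 histone acetyltransferases averaging 1 FPKM or more lay above a log2 ratio of 0.11. Of these 1 was lower, *KAT7 (1 of 2)* (chromosome 3, 33026268 to 33039246; *kat7a* in the reference table), with 11.0 FPKM in wild-type embryos and 7.24 in the mutants. The other copy of this H3K14 and H4 acetyltransferase, *kat7* on chromosome 12, was the most abundant acetyltransferase gene with 149 and 135 FPKM. The coactivators CBP and p300, which acetylate H3K27 at enhancers, were close to equal. *ep300a* had 17.0 and 16.4 FPKM, *ep300b* 23.2 and 21.5, and *crebbpb* 29.97 and 31.2. *crebbpa* had 9.07 and 7.46 FPKM, and *CREBBP (2 of 3)*, 97.3 kb from *crebbpb* on chromosome 3, had 20.4 and 21.5. *kat2a*, the SAGA acetyltransferase, had 34.1 and 34.4 FPKM, while its relative *kat2b* was under 1 FPKM in each group. *kat8*, the H4K16 acetyltransferase, had 29.3 and 30.4 FPKM. *kat6a* and *KAT6B*, of the MOZ family, had log2 ratios of 0.11 and -0.43. Over all acetyltransferases the summed FPKM was 346 in wild-type embryos and 326 in the mutants, and over deacetylases and sirtuins 648 and 692. The ratio of these sums was 0.534 and 0.472. Without *hdac1* the deacetylases and sirtuins summed to 297 and 283 FPKM.

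Among the H3K4 methyltransferases, which work in COMPASS complexes at promoters and enhancers, 1 of 9 genes was higher and none lower. *mll5* (chromosome 4, 21360140 to 21408343; *KMT2E* in the reference table), whose mammalian counterpart reads H3K4 methylation and has little or no methyltransferase activity, had 6.73 FPKM in wild-type embryos and 15.2 in the mutants, a log2 ratio of 1.17. The catalytic members lay within the limit. *mll2* (*KMT2D*), which writes H3K4 monomethylation at enhancers, led the class with 43.3 and 40.6 FPKM. *mll3a*, a gene for the related enhancer enzyme KMT2C, had 19.2 and 13.4 FPKM, a log2 ratio of -0.53, and its copy *mll3b* had -0.35 from 4.09 FPKM. *mll4a* and *mll4b*, which the reference table pairs with *kmt2ba* and *kmt2bb*, had log2 ratios of 0.01 and -0.33 from 20.8 and 12.0 FPKM, and *mll* (*kmt2a*) 0.25 from 8.92 FPKM. *setd1a*, which places most H3K4 trimethylation together with Setd1b, had 23.2 and 19.2 FPKM. *setd1ba* had 3.49 and 4.27 FPKM, and *setd1bb* was under 0.1 FPKM in each group.

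None of the 8 H3K9 methyltransferases, which build heterochromatin, passed the limit. *suv39h1b*, for H3K9 trimethylation at pericentromeric repeats, had 143 and 135 FPKM, and *setdb1b*, which silences transposable elements, 121 and 120. *ehmt1a*, for the H3K9 dimethyltransferase GLP, had 74.7 and 103 FPKM, a log2 ratio of 0.46, and *ehmt1b* 73.0 and 88.2, a log2 ratio of 0.27. *ehmt2*, for its partner G9a, lay on the other side with 17.4 and 12.8 FPKM, a log2 ratio of -0.44. It is the member nearest to *eomesa*, 164 kb away on chromosome 19 (1018013 to 1099926), and its span overlaps another gene. Linked sequence differences between the mutant chromosome and wild-type cannot be told apart from the loss of Eomesa there. *SETDB2* had 2.74 and 3.01 FPKM.

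Polycomb repressive complex 2, which methylates H3K27, was present with its core subunits. *ezh2*, the catalytic subunit of dividing cells, had 77.9 FPKM in wild-type embryos and 73.2 in the mutants, and its alternative *ezh1* 0.332 and 0.276. *eed*, which binds the methylated product and whose gene span overlaps another gene, had 43.6 and 39.1 FPKM. *suz12a* had 53.6 and 57.5 FPKM, and *suz12b* 21.8 and 19.7. The 4 subunit genes above 1 FPKM had log2 ratios from -0.15 to 0.10. This was the narrowest range of the histone-modifying classes, but it covers only 4 genes, each at 19.7 FPKM or more. Classes with more genes or with genes at lower levels are not directly comparable.

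The H3K36, H3K79 and H4K20 enzymes were likewise near equal. *setd2*, which trimethylates H3K36 in transcribed genes, had 85.7 and 75.9 FPKM, *dot1l*, for H3K79, 9.45 and 10.2, and *setd8a*, for H4K20, 179 and 174. Of the 5 other SET-domain genes averaging 1 FPKM or more 2 were lower. Their median log2 ratio was -0.55, and -0.11 without *setd6*. The summed FPKM of the class was 100 in wild-type embryos and 78.6 in the mutants, and 44.3 and 47.8 without *setd4*. *setd4* (chromosome 1, 47603374 to 47611426), linked in other animals to stem cell quiescence, had 55.9 and 30.9 FPKM, a log2 ratio of -0.86, and was the most abundant of the members that were lower. *setd6* (chromosome 25, 17601340 to 17752074), which methylates the NF-kappaB subunit RelA in mammals, had 5.15 and 3.05 FPKM, a log2 ratio of -0.75. It shares its span with 5 other genes, among them *cnot1* at 82.9 FPKM and *cyp2x7*, which was at 8.45 and 0.153 FPKM, so its value is uncertain. *setd5* had 9.55 and 6.50 FPKM. *setd7*, an H3K4 monomethyltransferase with many other substrates, and *setd3* lay on the higher side with log2 ratios of 0.57 and 0.32. *SETD9* was under 1 FPKM in each group.

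Lysine demethylases formed the largest class, and 15 of the 17 averaging 1 FPKM or more lay within the limit. *kdm2ba* (chromosome 8, 42291601 to 42314330), for a CpG-island-binding H3K36 demethylase that recruits a Polycomb complex, had 2.58 FPKM in wild-type embryos and 5.21 in the mutants, a log2 ratio of 1.01. Its copy *kdm2bb* had 5.83 and 6.09 FPKM. *KDM4A (1 of 2)* (chromosome 2, 17271980 to 17313945; *kdm4ab* in the reference table), for an H3K9 and H3K36 demethylase, had 44.1 and 28.8 FPKM, a log2 ratio of -0.61. *KDM4C*, of the same family, had -0.43 from 19.5 FPKM, *kdm4b* 0.05 from 34.1 FPKM and *KDM4A (2 of 2)* 0.10 from 3.11 FPKM. The demethylases of H3K4 went either way. *kdm1a*, the LSD1 gene, had 70.7 and 89.2 FPKM, *kdm5ba* 31.7 and 25.5, *kdm5bb* 29.98 and 30.9, *kdm5c* 32.9 and 28.1 and *KDM5A* 6.47 and 5.53. *KDM2A (1 of 2)* was the most abundant of the class in wild-type embryos, with 75.2 and 80.1 FPKM, while *kdm1a* was so in the mutants. *kdm2aa* had 24.6 and 26.5 FPKM, and *KDM3B*, for an H3K9 demethylase, 59.0 and 75.1.

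The H3K27 demethylases oppose Polycomb repressive complex 2 and are used at developmental genes. *KDM6B (2 of 2)* had 23.0 FPKM in wild-type embryos and 24.2 in the mutants, and *kdm6bb* under 1 FPKM in each group. *kdm6a* had 3.75 and 5.58 FPKM, a log2 ratio of 0.57. The related *kdm6al*, whose span overlaps another gene, had 12.3 and 8.76, a log2 ratio of -0.49. Together the lysine methyltransferases and complex subunits of all classes (33 genes) had 1568 FPKM in wild-type embryos and 1595 in the mutants, 3.27 and 3.23 times the sums of the 18 demethylases.

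Of the 7 arginine methyltransferases above the minimum 1 was higher and none lower. *prmt2* (chromosome 9, 10177842 to 10185720), which places asymmetric dimethylarginine on H3R8 in frog embryos, had 6.46 FPKM in wild-type embryos and 10.005 in the mutants. Only a 5S rRNA gene listed at 0 in each group shares its span. *prmt5*, for symmetric dimethylarginine, had 107 and 103 FPKM. *prmt6*, *prmt7* and *prmt10* had log2 ratios of -0.38, -0.38 and -0.34 from 51.4, 38.1 and 48.1 FPKM. *prmt3*, whose product methylates a ribosomal protein, had 13.0 and 12.7 FPKM. *prmt8b* and *PRMT8 (1 of 2)*, brain genes in mammals, were under 1 FPKM in each group.

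DNA methyltransferase genes had the highest class median, 0.22 over 6 genes, with none past the limit. *dnmt1*, which copies methylation after replication, had 73.4 FPKM in wild-type embryos and 68.2 in the mutants. The de novo enzymes were led by genes of the *DNMT3B* type. *dnmt3* (*dnmt3bb.2* in the reference table) had 55.9 and 63.6 FPKM, *dnmt7* (*dnmt3ba*) 31.6 and 46.1, *dnmt5* (*dnmt3bb.3*) 17.9 and 21.5, and *dnmt4* (*DNMT3B*) 16.5 and 13.7. Both genes matched to *DNMT3A* were low, *dnmt8* at 2.73 and 3.27 FPKM and *dnmt6* at 0.135 and 0.0440. In sum, the *DNMT3B*-type genes had 122 FPKM in wild-type embryos and 145 in the mutants, 42.5 and 43.8 times the *DNMT3A*-type genes. *dnmt5*, *dnmt3* and *dnmt4* lie next to each other on chromosome 23 from 17131888 to 17272078, with gaps of 1.38 kb and 6.67 kb. Their log2 ratios were 0.26, 0.19 and -0.26. The span of *dnmt4* overlaps another gene, so its value is uncertain. *dnmt7*, on chromosome 8, was the furthest of the class with a log2 ratio of 0.54. The 2 Tet dioxygenase genes found by name were close to absent, with *TET3* at 0.0571 and 0.0662 FPKM and *TET2* at 0.00366 and 0.0426 FPKM. No gene named *tet1* was found, so its level is not known here.

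The *mllt* genes stayed within the limit. *mllt10*, for a partner of the H3K79 enzyme Dot1l, had 35.6 and 44.7 FPKM, and *mllt3*, for a reader of acetylated histones, 19.6 and 14.0. *mllt1* had 7.10 and 7.96 FPKM, *MLLT1 (1 of 2)* 1.43 and 1.18, *MLLT4 (1 of 2)*, for the junction protein afadin, 15.1 and 14.1, and *MLLT4 (2 of 2)* 9.52 and 7.84. *mllt11* was under 1 FPKM in each group.

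Many of these enzymes have related genes, some of them from a genome duplication in the ancestor of teleost fish. For 24 pairs of related members, not all of them products of that duplication, the levels were set side by side. Both genes of a pair are called copies here. FPKM, being scaled to length, allows this comparison as far as the gene models are complete. In 18 pairs the copies differed by 2-fold or more in wild-type embryos, and in all 18 the same copy was the higher in MZ*eomesa* embryos. A swap in those pairs would need a relative change of 2-fold or more, so this mostly restates that levels were alike. Of the 6 closer pairs the higher copy was the same in 5, the exception being *kdm5ba* and *kdm5bb*. Examples of an unequal pair are *ezh2* and *ezh1*, 235-fold apart in wild-type, *KDM6B (2 of 2)* and *kdm6bb*, 94.8-fold, *kat2a* and *kat2b*, 57.9-fold, and *suv39h1b* and *suv39h1a*, 9.06-fold. Among pairs with both copies averaging 1 FPKM or more, the ratio between copies differed most between the groups for *kdm6al* and *kdm6a*, 3.28 in wild-type embryos and 1.57 in the mutants. The span of *kdm6al* overlaps another gene, so its ratio to *kdm6a* is uncertain. For *kdm2bb* and *kdm2ba* the ratio was 2.26 and 1.17, and for *KDM4A (1 of 2)* and *KDM4A (2 of 2)* 14.2 and 8.63. In these pairs, picked for the size of the difference, the copies were closer to each other in MZ*eomesa* embryos, as in 5 of the 6 demethylase pairs. Among those 5, *KDM2A (1 of 2)* and *kdm2aa* had nearly the same ratio in each group, 3.06 and 3.02, and *kdm6bb* was under the minimum mean. Over all 24 pairs the copies were closer in 9 and further apart in 15. Over the 19 pairs with both copies averaging 1 FPKM or more they were closer in 6 and further apart in 13. *ehmt1a* and *ehmt1b* were nearly equal to each other in each group, with ratios of 1.02 and 1.16.

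**Figure D4:**
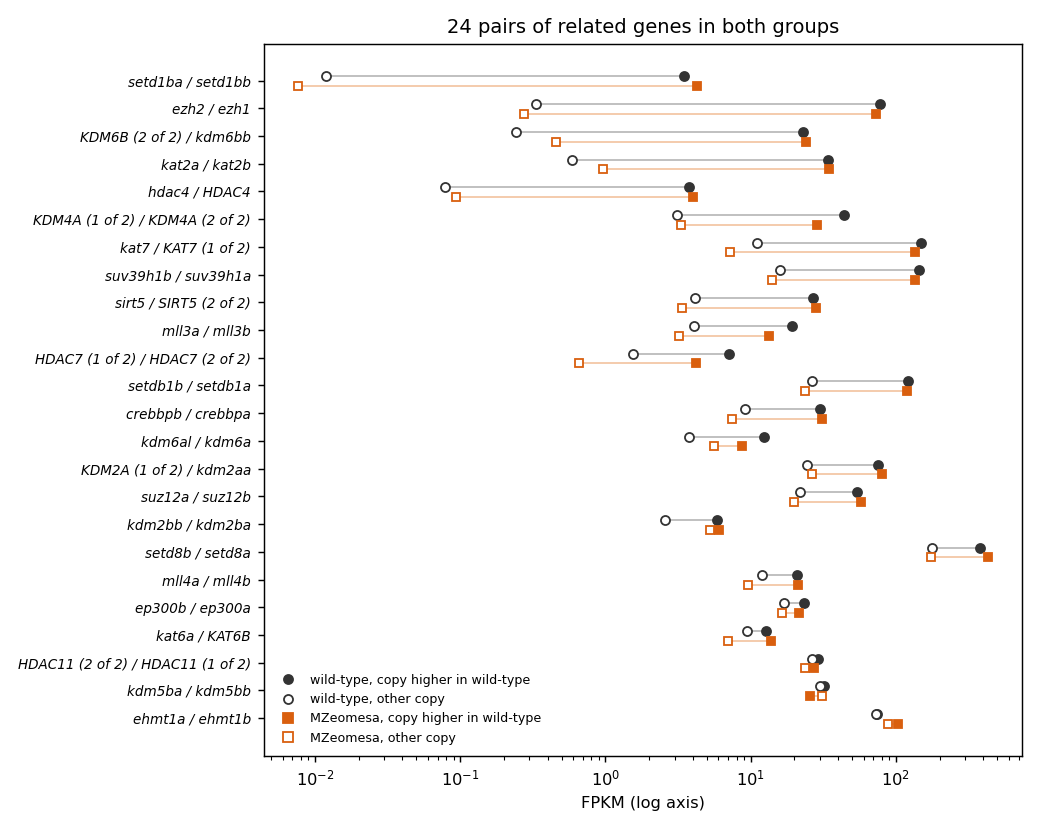
FPKM of 24 pairs of related genes on a log axis, wild-type as circles and MZ*eomesa* as squares, filled for the copy that is higher in wild-type embryos. Pairs are ordered by the ratio between the copies in wild-type embryos, from *setd1ba* and *setd1bb* at the top to *ehmt1a* and *ehmt1b*, 1.02-fold apart, at the bottom. The filled symbol lies to the right in all pairs except the squares of *kdm5ba* and *kdm5bb*.

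The members are scattered over all 25 chromosomes and 2 scaffolds. Chromosome 3 holds the most, 12 of 109 (11.0%, against 4.93% of all genes). Neighbouring members less than 200 kb apart number 12 pairs. Some of these join different classes, such as *dnmt7* and *suv39h1a*, 14.3 kb apart with log2 ratios of 0.54 and -0.17, and *kat8* and *setd1a*, 25.6 kb apart with 0.05 and -0.27. Chromosome 19, which carries *eomesa*, holds 7 members, and the 4 averaging 1 FPKM or more (*ehmt2*, *setdb1a*, *mll4a* and *hdac1*) had log2 ratios from -0.44 to 0.22.

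Partner genes of the same machinery were taken from a fixed list, of which 101 names are reported here, under which 84 genes were found and 78 had a mean of at least 1 FPKM. Of these 78, 3 were 1.5-fold or more higher and 7 lower in MZ*eomesa* embryos, 68 lay between, and their median log2 ratio was -0.02. These are 3.85% higher and 8.97% lower, against 12.2% and 10.4% of all genes. That background falls with the level of a gene, as given above, and it was not matched to the levels of the partner genes. Of the COMPASS core genes *wdr5* had 129 and 133 FPKM and *dpy30* 127 and 122, while *rbbp5* had 16.0 and 22.9, a log2 ratio of 0.52, and *cxxc1*, for the CpG-binding subunit, was lower at 41.2 and 25.1. Polycomb repressive complex 1 had 5 of its 20 genes above and 15 below equal values, with a median of -0.25, where 51.1% of all genes lay below. Past the limit were 1 higher and 3 lower. There *bmi1a*, a RING-finger subunit, had 80.7 and 46.8 FPKM, *cbx8b*, a reader of H3K27 methylation, 18.9 and 11.5, and *phc3* 8.61 and 5.53. The further entry *PHC3 (2 of 2)* had 8.65 and 6.35 FPKM, a log2 ratio of -0.45, short of the limit. Both *phc2b* and *phc3* count with a further entry among the 20. On the other side was *yaf2* at 9.31 and 14.4 FPKM. Listed spans of *yaf2*, *wdr5* and *PHC3 (2 of 2)* overlap another gene, which makes their values uncertain. *rnf2*, the catalytic ubiquitin ligase of this complex, had 90.5 and 97.1 FPKM.

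Deacetylase complexes, with 20 genes, held 1 that was lower, *tbl1xr1* of the NCoR complex at 58.8 and 38.6 FPKM. The further entry *TBL1XR1*, whose span overlaps another gene, had 1.14 and 1.19 FPKM and also counts among the 20. *mta2* of NuRD had 245 and 271 FPKM and *rcor1* of the LSD1 complex 143 and 128. Of 15 further histone writers 1 was lower, *setmar* at 1.36 and 0.715 FPKM, which passed the minimum mean only through its wild-type value. *carm1* had 85.5 and 84.9 FPKM and *whsc1*, an H3K36 enzyme, 117 and 112. Among 3 further erasers *jmjd6* was lower, at 31.6 and 20.6 FPKM. Of the 7 genes tied to DNA methylation all lay above equal values, as 48.9% of all genes did, with a median of 0.37, and 2 were past the limit. *gadd45aa* and *gadd45ab*, stress-induced genes linked to demethylation, had 3.66 and 11.5 FPKM and 1.195 and 1.80 FPKM. The spans of *gadd45ab* and of *carm1* overlap another gene, so their values are uncertain. *uhrf1*, which brings Dnmt1 to replicated DNA, had 105 and 123 FPKM and shares almost the same values with *UHRF1 (1 of 2)*, so the reads may have been divided between them. The 4 genes of PRC2 accessory factors had a median of -0.12, with *aebp2* at 53.2 and 47.2 FPKM.

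**Figure D5:**
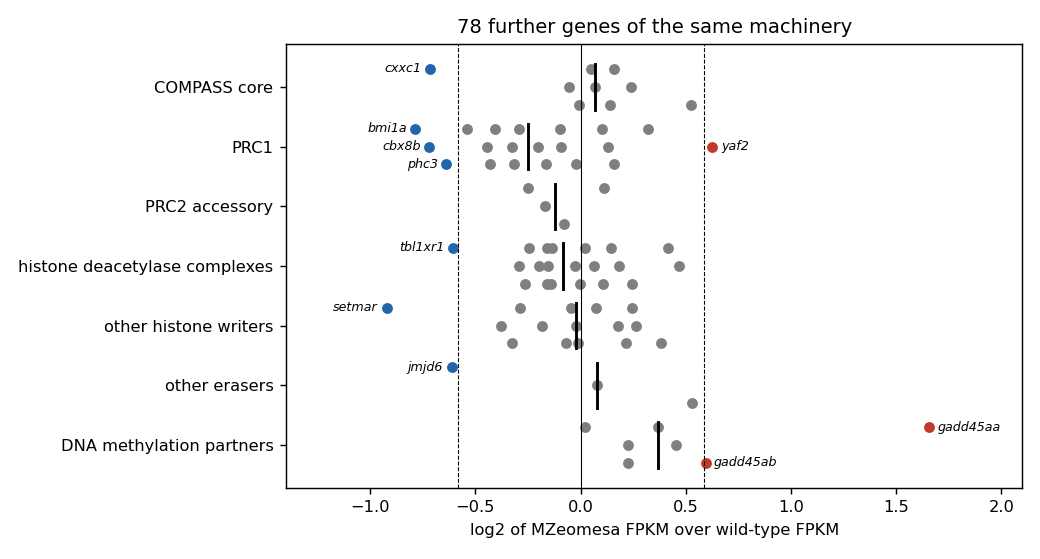
The log2 of MZ*eomesa* over wild-type FPKM for 78 partner genes averaging 1 FPKM or more, by group. Points are genes, thick bars medians and dashed lines the 1.5-fold limit; names mark the 3 genes past it upward and the 7 downward. *gadd45aa* is the furthest. Polycomb repressive complex 1 (PRC1) holds 4 of the 10, from 20 genes, where 22.6% of all genes passed the limit.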

How the data were processed

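Poly(A) RNA of whole sphere stage embryos was sequenced by the authors as single reads from 2 wild-type and 2 MZ*eomesa* samples. Per the labels and the study's methods, reads were mapped to Zv9 with TopHat2 2.0.5, and Cufflinks, set to share out multiply mapped reads, was used to estimate and compare expression. In the deposited table the authors combined the samples of a group, leaving 2 FPKM values for each gene. It has 0 further columns of values per sample. Library depths are not given in the sources used here, and the precision of single values is unknown. The table also holds the authors' fold change, test statistic, p-value, q-value and significance mark for each gene, none of which was used.

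Genes were chosen by the start of their name and grouped into classes by hand. The log2 of MZ*eomesa* over wild-type FPKM was computed without a pseudocount for genes averaging 1 FPKM or more and a value above 0 in each group. A gene was counted as higher or lower at a difference of 1.5-fold or more, and the same share over all genes is given as the background. With 1 value per group no test between the groups was possible. Genes named are those past 1.5-fold, those nearest to that limit, the extremes of each class, all members of small classes and pairs of related genes, together with fixed lists of partner genes and markers. A partner gene of the fixed lists is not reported here and was left out of their counts and medians. Members and lists were chosen with earlier results of these data known. Gene symbols of a reference table, matched by Ensembl identifier, were found for 88 of the 109 genes. The counting was tested on simulated data. Python 3.11.15, numpy 2.4.6, pandas 2.3.3 and matplotlib 3.10.9 were used.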

Additional observations from a re-analysis of the deposited data

How the results depend on the processing

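No paired analysis was possible because the deposited table gives 1 value per group, which also prevents leaving out a replicate. The 7 members higher and 7 lower in MZ*eomesa* embryos shifted most with the minimum level and the fold. With a minimum mean of 5 FPKM 3 of 80 members were higher, and with no minimum 12 of 109 were higher. The share of all genes past the limit in either direction moved as well. It was 22.6% in the main setting, 16.0% at 5 FPKM and 37.7% with no minimum. At 2-fold 1 member was lower, against 3.8% of all genes. In all other settings tried the counts stayed within 1.5 times the main counts of 7 and 7. The median log2 ratio of the members, -0.036, was -0.034 with a minimum mean of 0.1 FPKM, -0.072 with 5 FPKM, -0.017 with no minimum, -0.035 with a pseudocount of 1 FPKM, -0.025 when centred on the median of all genes and -0.025 without the *mllt* genes. It was 0.012 without genes that share their span. Requiring at least 1 FPKM in each group, chosen after seeing the data, left 5 members higher and 6 lower. Of all genes 19.4% then passed in either direction. Leaving out genes not marked as OK by the authors, also chosen after seeing the data, left 7 and 7. The unknown depth and the lack of a value per sample limit every fold given here.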
